A study of Rattus norvegicus with 9 samples.

Results

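Aminoacyl-tRNA synthetases are the enzymes that join each amino acid to its tRNA, and here their transcripts were followed in cultured rat horizontal basal cells exposed to phorbol 12-myristate 13-acetate (PMA). The members were all gene symbols in the deposited tables with the standard synthetase form (an amino acid letter followed by "ars", with or without a final 2), together with Eprs, Farsa, Farsb, Fars2 and Tarsl2. This gave 36 of 17315 genes, of which 21 serve the cytosol and 15, ending in 2, serve the mitochondrion. All 36 passed the filter on low counts. The rule itself uses no measured value. Gars and Kars each encode an enzyme that works in both compartments and were counted with the cytosolic genes, as was Tarsl2, a threonyl-tRNA synthetase-like gene. Iars2 and Mars2 had no line under these symbols and were not analysed here.

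Horizontal basal cells are stem cells held in reserve at the base of the olfactory epithelium, the tissue that lines the smelling part of the nose. The cells were a primary culture from rats of the SD strain at passage 7. The tested groups were cells kept in 50 nM PMA for 6 h (3 libraries) and for 12 h (3 libraries), and the comparison group was cells given the vehicle, 0.1% DMSO, labelled time 0 (3 libraries). PMA activates protein kinase C. No vehicle library was labelled 6 h or 12 h, so PMA and time in culture cannot be told apart, and the 6 h and 12 h comparisons share the vehicle libraries. The labels do not say whether replicates came from separate animals or cultures, so p-values measure the spread between libraries only. Libraries held 13601635 to 16912465 reads in genes at 12 h, 15489394 to 19001819 at 6 h and 14626173 to 18118499 in vehicle. All 9 horizontal basal cell markers were detected. Their summed level, most of it from a few genes, was 2837 to 3520 CPM at 6 h and 4432 to 5122 CPM at 12 h, against 15788 to 18678 CPM in vehicle. Of the 9 markers 8 fell at 6 h and 7 at 12 h. Krt5, a basal keratin, changed by -4.08 at 6 h and -3.80 at 12 h, whereas Icam1 rose by 0.30 and 1.33 and Egfr, at -0.24 at 6 h, rose by 0.64 at 12 h. CPM is the count divided by the library total, on the usual per-million basis, after trimmed-mean (TMM) scaling of the libraries.

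A synthetase selects 1 amino acid, activates it with ATP and transfers it to the matching tRNA, so the set as a whole feeds the ribosome. Animal cells hold separate nuclear genes for the cytosolic and mitochondrial enzymes for most amino acids. Several cytosolic enzymes are held together in the multisynthetase complex on the scaffold proteins Aimp1, Aimp2 and Eef1e1. In mammalian cells short of amino acids, the factor Atf4 raises many cytosolic synthetase genes through a composite C/EBP-ATF element, and Myc-type factors bind the E-box.

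The stretches below show examples of these elements next to the start of the members. They were searched in RefSeq promoter windows of the GRCr8 assembly, from 250 bases before to 50 bases after the start, on both strands. Of the 36 members, 35 were matched to that assembly (17 by current symbol, 18 by synonym) and 32 had a window. The counts themselves were made on another build, rn6. The C/EBP-ATF element was searched as TGATGNAA and the E-box as CACGTG. Capitals mark the match, which reads TTGCATCA or TTTCATCA where the element lies on the opposite strand. Each stretch is written along its gene's own strand, and positions count from the start site of its promoter window as +1. That site can lie inside the outer bounds of the gene, as for Aars, whose annotated gene begins at chr19:55906694.
C/EBP-ATF element, Aars at +10 (chr19:55908480-55908509, plus strand): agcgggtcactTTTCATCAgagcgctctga
C/EBP-ATF element, Cars at +18 (chr1:208225334-208225363, minus strand): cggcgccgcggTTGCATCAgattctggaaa
C/EBP-ATF element, Iars at -24 (chr17:15193658-15193687, minus strand): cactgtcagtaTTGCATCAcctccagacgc
C/EBP-ATF element, Mars at -17 (chr7:65023752-65023781, minus strand): gcccgttccggTTGCATCAgcgtgggctcc
C/EBP-ATF element, Nars at -14 (chr18:60275778-60275807, minus strand): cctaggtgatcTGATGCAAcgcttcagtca
C/EBP-ATF element, Tars at -27 (chr2:62114811-62114840, minus strand): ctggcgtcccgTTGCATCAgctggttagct
C/EBP-ATF element, Yars at +39 (chr5:146820190-146820212, plus strand): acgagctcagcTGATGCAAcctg
E-box, Aars at -146 (chr19:55908325-55908352, plus strand): gccagccgtgtCACGTGacagcccatgt
E-box, Farsb at -24 (chr9:87395513-87395540, minus strand): ctgaggccccgCACGTGgcgcaggcgca
E-box, Iars at -100 (chr17:15193736-15193763, minus strand): accaatcgccgCACGTGttgtttgtggg
E-box, Tars at +7 (chr2:62114780-62114807, minus strand): tccgcctgggcCACGTGgcgcacgcgca
E-box, Vars at -39 (chr20:3824974-3825001, minus strand): acaaagggggaCACGTGggtgccgctgg
E-box, Ears2 at +22 (chr1:186057037-186057064, minus strand): gcgaagaagccCACGTGtgtgtttctat

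The C/EBP-ATF element lay in 7 of 18 cytosolic windows (38.9%) and in 0 of 14 mitochondrial windows, against 731 of all 21851 protein-coding windows (3.345%). The E-box lay in 5 of 18 cytosolic windows (27.8%) and 1 of 14 mitochondrial windows, that of Ears2, against 7.016% of all windows. The NRF1 element, searched in the same way, was found in 1 member, Wars2, against 1.08% of all windows. A match describes the letters of the window and is not evidence of a bound factor.

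After 6 h in PMA, 28 of the 36 synthetase genes fell against vehicle, 3 rose and 5 did not pass the test, and after 12 h, 28 fell, 2 rose and 6 did not pass. In all, 27 genes were lower at both times, among them each mitochondrial gene called at 6 h except Lars2. Qars and Aars were higher at both times. No member was called in opposite directions at the 2 times. Calls are edgeR's quasi-likelihood test with a Benjamini-Hochberg adjusted p under 0.05 over the 10128 genes tested. In the background of these comparisons 76.8% of all genes were called at 6 h (37.8% higher, 39% lower) and 75.8% at 12 h (37.7% higher, 38.2% lower). The share of members called, 86.1% at 6 h and 83.3% at 12 h, was therefore near that of all genes, whereas their split was 3 higher to 28 lower at 6 h and 2 higher to 28 lower at 12 h. The members' median log2 fold change was -0.68 at both times, against -0.03 at 6 h and -0.02 at 12 h over all genes tested. Fewer cells of a type and less RNA per cell cannot be told apart in these bulk libraries.

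The same direction was seen in the raw share of reads. Members took 0.316% to 0.331% of the reads in genes at 6 h and 0.285% to 0.293% at 12 h, against 0.575% to 0.611% in vehicle, and the groups did not overlap. The split of the calls depended on how libraries were scaled. Scaling by library totals alone moved the median of all genes to -0.57 at 6 h and -0.60 at 12 h, and upper-quartile scaling moved it to -0.29 at both. Under totals alone 34 members were lower and 1 higher at 6 h, with 35 lower and 0 higher at 12 h. Under upper-quartile scaling 32 were lower and 2 higher at 6 h, with 32 lower and 1 higher at 12 h. Over all genes, totals alone gave 2277 higher and 5855 lower at 6 h and 2120 higher and 6021 lower at 12 h. Upper-quartile scaling gave 3023 higher and 4837 lower at 6 h and 2963 higher and 4827 lower at 12 h.

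Counting the libraries themselves, 28 members had all 3 libraries at 6 h below all 3 vehicle libraries and 3 had them above, where 40.3% and 38.6% of all genes did (79% either way). At 12 h these counts were 29 below and 2 above, where 40% and 38.7% of all genes did (78.7% either way). The median coefficient of variation of a member between replicates was 8.63% at 12 h, 9.32% at 6 h and 6.98% in vehicle.

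**Figure D1:**
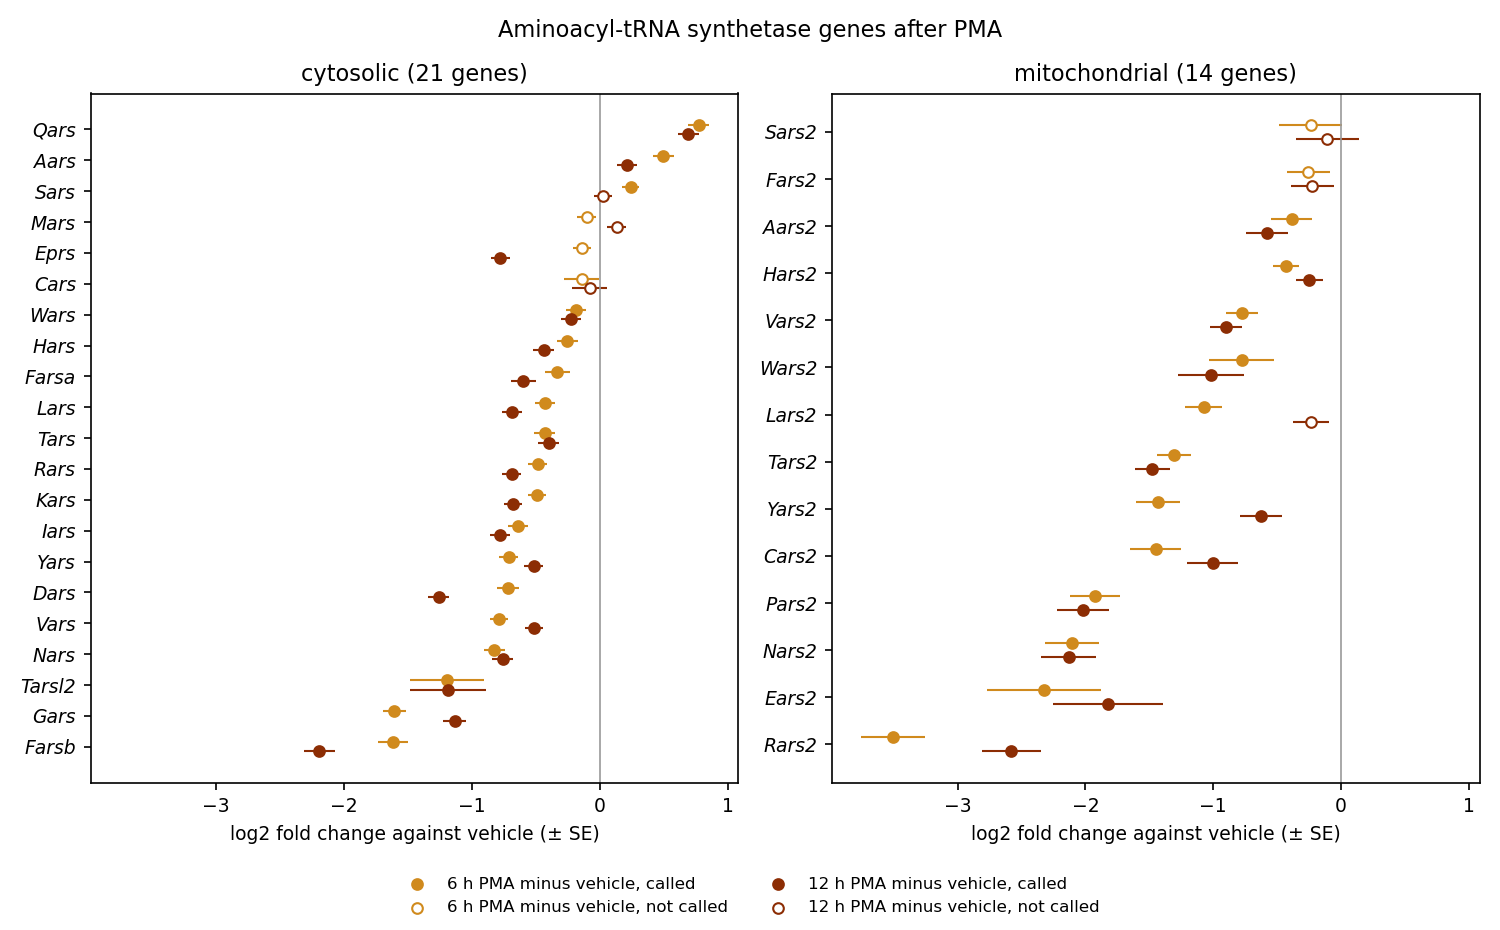
Log2 fold change against vehicle of each synthetase gene (x axis, with its standard error as a bar) at 6 h and 12 h of PMA, for 21 cytosolic and 14 mitochondrial genes; filled points passed an adjusted p under 0.05. The 14 mitochondrial genes drawn lie below 0 at both times, whereas among cytosolic genes Qars and Aars were called higher at both, and the sign of Aars and Sars depends on library scaling.

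The deepest falls were in the mitochondrial set. Of its 15 genes, 13 fell at 6 h and 12 at 12 h, and 0 rose at either time. The count of higher genes was also 0 at an unadjusted p under 0.05, with the DESeq2 Wald test and with limma-voom. Their median log2 fold change was -1.30 at 6 h and -1.01 at 12 h. At least 2-fold lower estimates were found for 9 of 15 mitochondrial genes at 6 h and 8 at 12 h, but for 3 and 4 of the 21 cytosolic genes, where 21.58% and 20.96% of all genes tested were that low.

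Rars2, the mitochondrial arginyl-tRNA synthetase, stood at 2.56, 1.40 and 1.45 CPM at 6 h and 4.01, 3.12 and 3.03 CPM at 12 h, against 25.5, 18.3 and 17.4 CPM in vehicle. No library of either PMA time reached the lowest vehicle library, and the 6 h values rested on few reads (37, 19 and 25). The log2 fold change was -3.50 ± 0.25 at 6 h (SE, n = 3 libraries a group, edgeR adjusted p = 7.7e-10) and -2.58 ± 0.23 at 12 h (edgeR adjusted p = 2.0e-08), the lowest of all 36 genes at each time. Between the times it was higher at 12 h than at 6 h, by 0.92 ± 0.28 (edgeR adjusted p = 0.010), a call that was lost without 12 h replicate 1 (0.78) and with limma-voom (adjusted p = 0.079). In GRCr8 Rars2 overlaps Orc3 and Slc35a1 on the opposite strand, and the unstranded counts do not record the strand of a read. The per-strand columns of Rars2 summed to 1 times its unstranded count.

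Pars2 charges mitochondrial prolyl-tRNA. It had 3.87, 6.61 and 4.28 CPM at 6 h and 4.49, 4.36 and 4.94 CPM at 12 h, against 18.2, 17.4 and 20.3 CPM in vehicle, again without overlap with vehicle. The log2 fold change was -1.93 ± 0.20 at 6 h and -2.02 ± 0.20 at 12 h (edgeR adjusted p = 9.2e-08 and 6.7e-08). Tars2, its threonyl counterpart, had 17.6, 21.5 and 18.8 CPM at 6 h and 20.3, 16.9 and 14.0 CPM at 12 h, against 51.8, 47.8 and 43.4 CPM in vehicle. Tars2 was thus below its vehicle level in all 6 PMA libraries, with log2 fold changes of -1.30 ± 0.13 and -1.48 ± 0.13 (edgeR adjusted p = 8.3e-08 and 2.2e-08).

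Nars2, Cars2 and Vars2 were lower at both times. Nars2, the asparaginyl enzyme, changed by -2.11 at 6 h and -2.13 at 12 h, Cars2 (cysteinyl) by -1.45 and -1.01, and Vars2 (valyl) by -0.77 and -0.90. Ears2, which charges mitochondrial glutamyl-tRNA, changed by -2.32 ± 0.45 and -1.82 ± 0.43 (edgeR adjusted p = 0.00014 and 0.00099). It rested on few reads, with 5, 24 and 8 at 6 h, and without 6 h replicate 2 its 6 h value was -3.34 and its difference between 12 h and 6 h, 0.50 with all libraries, was 1.52 (edgeR adjusted p = 0.018). Wars2 (tryptophanyl) changed by -0.78 at 6 h and -1.02 at 12 h, and Aars2 (alanyl) by -0.39 and -0.58. The 6 h call of Wars2 was lost without vehicle replicate 2 (-0.65). That of Aars2 was lost without vehicle replicate 2 (-0.40) or 3 (-0.34) and without 6 h replicate 1 (-0.29) or 3 (-0.36).

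Yars2 and Lars2 stood nearer to vehicle at 12 h than at 6 h. Yars2, the tyrosyl enzyme, had 5.74, 5.58 and 7.57 CPM at 6 h and 12.2, 9.51 and 11.6 CPM at 12 h, against 18.3, 17.0 and 16.04 CPM in vehicle. The 12 h libraries lay between the other groups and overlapped neither. Its log2 fold change was -1.43 ± 0.17 at 6 h and -0.62 ± 0.16 at 12 h, and the 12 h value exceeded the 6 h value by 0.81 ± 0.18 (edgeR adjusted p = 0.00096). Lars2, the leucyl enzyme, had 11.8, 11.8 and 8.67 CPM at 6 h and 17.4, 20.9 and 19.3 CPM at 12 h, against 22.1, 22.5 and 23.2 CPM in vehicle. It fell by 1.08 ± 0.14 on the log2 scale at 6 h. At 12 h Lars2 was at -0.23 ± 0.14 without passing the test (edgeR adjusted p = 0.14), although its 12 h libraries all lay below vehicle. Lars2 did pass at 12 h under upper-quartile scaling (-0.50) and totals alone (-0.81). Between the times it was 0.84 ± 0.15 higher at 12 h than at 6 h (edgeR adjusted p = 0.00014). Fars2 (phenylalanyl) and Sars2 (seryl) did not pass at either time, with -0.26 and -0.22 for Fars2 and -0.24 and -0.11 for Sars2. Without 12 h replicate 3, Fars2 passed at 12 h (-0.41). Fars2 was also called lower at both times under upper-quartile scaling (-0.51 and -0.50) and totals alone (-0.79 and -0.81). Sars2 was called lower at both times under totals alone (-0.78 and -0.68).

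**Figure D2:**
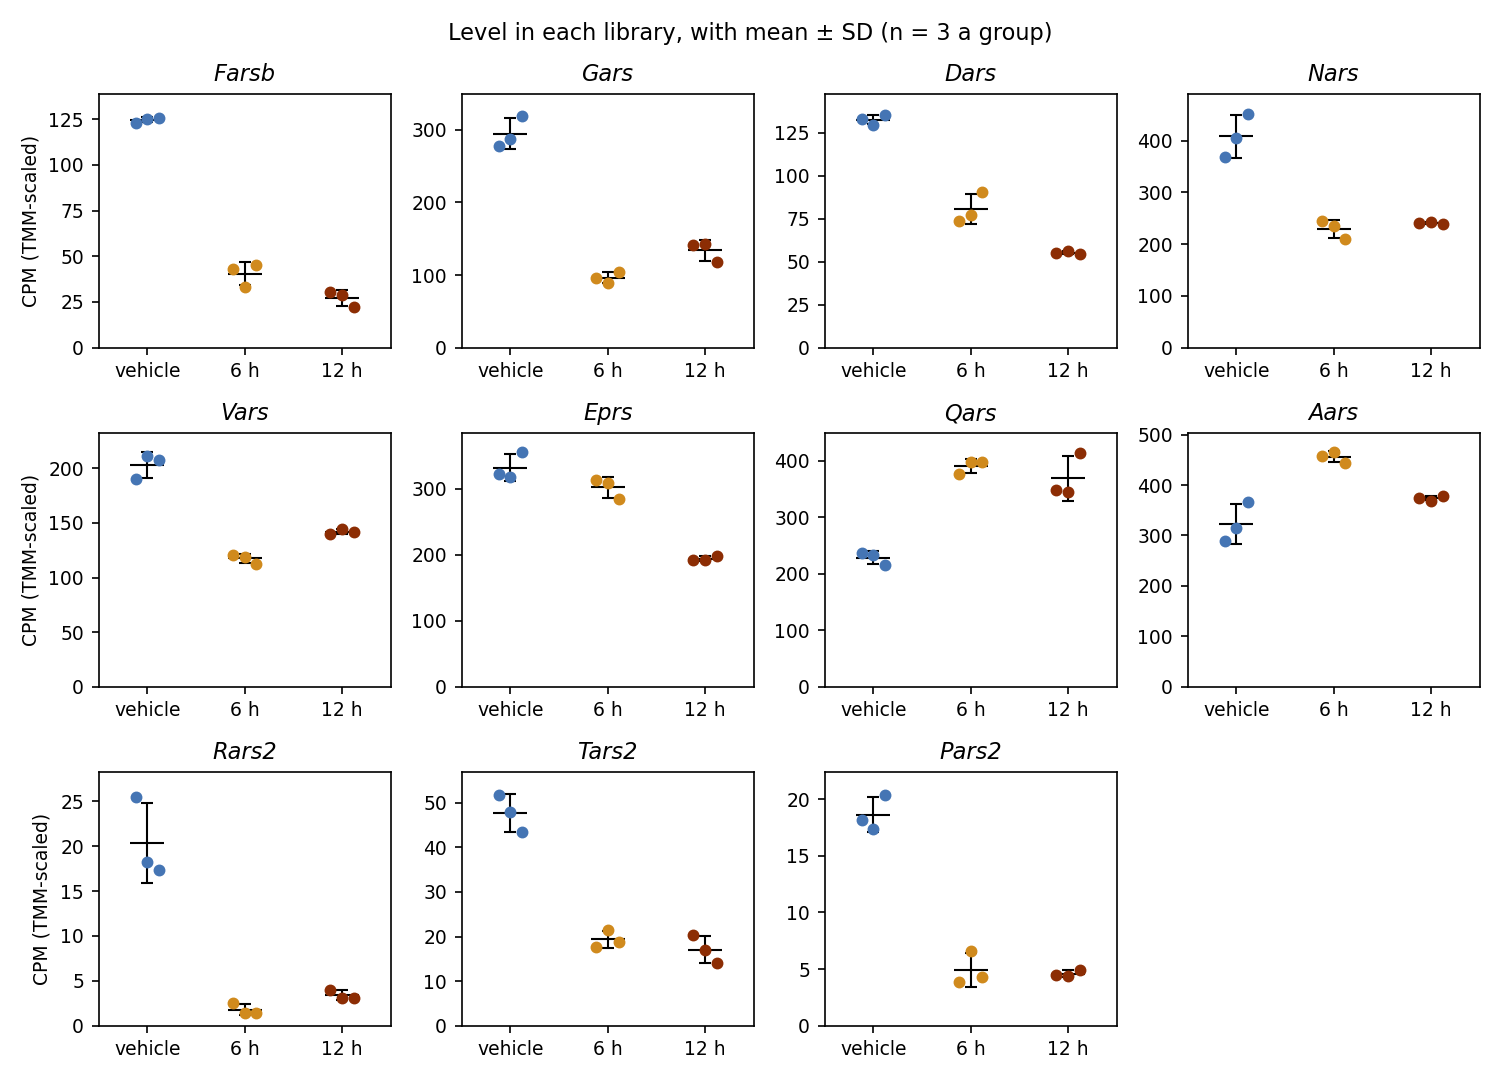
TMM-scaled CPM (y axis, from 0) in each of the 9 libraries for 8 cytosolic and 3 mitochondrial synthetase genes, in vehicle and after 6 h and 12 h of PMA; points are libraries and bars are the mean ± SD. In the bottom row every PMA library of Rars2, Tars2 and Pars2 lies under every vehicle library, while Qars lies above vehicle and Eprs lies lowest at 12 h.

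In the cytosolic set the changes were smaller and ran both ways. Of 21 genes, 15 fell, 3 rose and 3 did not pass at 6 h, and 16 fell, 2 rose and 3 did not pass at 12 h. The median log2 fold change was -0.43 at 6 h and -0.60 at 12 h. With Tarsl2 counted as mitochondrial instead, 14 of 16 mitochondrial genes fell at 6 h and 13 at 12 h.

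Farsb and Farsa encode the beta and alpha subunits of cytosolic phenylalanyl-tRNA synthetase, which works as a tetramer of both. Farsb had 43.1, 33.3 and 45.2 CPM at 6 h and 30.2, 28.9 and 22.3 CPM at 12 h, against 123, 125 and 126 CPM in vehicle. Its log2 fold change was -1.62 ± 0.12 at 6 h and -2.19 ± 0.12 at 12 h (edgeR adjusted p = 1.3e-09 and 4.4e-11), the lowest of the cytosolic set at each time, and its log2 difference between 12 h and 6 h was -0.58 (edgeR adjusted p = 0.00088). The partner subunit Farsa moved less, with 71.0, 69.8 and 83.4 CPM at 6 h and 57.6, 70.5 and 58.6 CPM at 12 h, against 93.9, 101 and 87.6 CPM in vehicle. Farsa changed by -0.33 ± 0.10 at 6 h and -0.60 ± 0.10 at 12 h. Its difference of -0.26 between 12 h and 6 h was lost without 6 h replicate 3 (-0.17), 12 h replicate 1 (-0.21) or 12 h replicate 3 (-0.22). The subunits of 1 enzyme thus differed in the size of their fall, a difference that was not tested.

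Gars, the glycyl enzyme of both compartments, had 96.4, 89.2 and 104 CPM at 6 h and 141, 142 and 118 CPM at 12 h, against 278, 287 and 319 CPM in vehicle. Its log2 fold change was -1.61 ± 0.09 at 6 h and -1.14 ± 0.09 at 12 h (edgeR adjusted p = 2.6e-11 and 2.6e-09), and the 12 h libraries were 0.47 above those at 6 h (edgeR adjusted p = 0.00028). Dars, the cytosolic aspartyl enzyme, was lower again at 12 h. It had 73.8, 77.2 and 90.2 CPM at 6 h and 55.0, 56.4 and 54.4 CPM at 12 h, against 133, 130 and 135 CPM in vehicle. The 3 groups did not overlap, and its log2 fold change was -0.72 ± 0.08 at 6 h and -1.26 ± 0.08 at 12 h (edgeR adjusted p = 4.1e-07 and 3.8e-10).

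Nars, the asparaginyl enzyme, had 245, 235 and 211 CPM at 6 h and 241, 242 and 239 CPM at 12 h, against 368, 405 and 452 CPM in vehicle. It was about as low at both times, with -0.83 ± 0.08 and -0.76 ± 0.08 (edgeR adjusted p = 6.0e-08 and 1.9e-07). Vars, the valyl enzyme, had 121, 119 and 113 CPM at 6 h and 140, 145 and 142 CPM at 12 h, against 190, 211 and 208 CPM in vehicle. The 3 groups of Vars were again apart, with -0.79 ± 0.07 at 6 h and -0.52 ± 0.07 at 12 h (edgeR adjusted p = 1.6e-08 and 3.3e-06).

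Eprs, a single protein that charges both glutamyl- and prolyl-tRNA, was lower at 12 h than at 6 h. It had 313, 309 and 284 CPM at 6 h and 191, 191 and 198 CPM at 12 h, against 322, 318 and 355 CPM in vehicle. All 3 libraries at 6 h lay below all 3 vehicle libraries. At 6 h the value was -0.14 ± 0.07 and did not pass (edgeR adjusted p = 0.089), although it passed under upper-quartile scaling (-0.39) and totals alone (-0.68). At 12 h it was -0.78 ± 0.07 (edgeR adjusted p = 2.6e-08), and the log2 difference between 12 h and 6 h was -0.64 ± 0.07 (edgeR adjusted p = 1.3e-06).

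The cytosolic genes higher at 6 h were Qars, Aars and Sars. Qars, the glutaminyl enzyme, had 376, 398 and 397 CPM at 6 h and 349, 344 and 414 CPM at 12 h, against 237, 233 and 215 CPM in vehicle, and it rose by 0.77 ± 0.08 at 6 h and 0.69 ± 0.08 at 12 h (edgeR adjusted p = 1.1e-07 and 5.0e-07). With libraries scaled by totals alone the 12 h value of Qars was 0.11 and did not pass. Aars, the alanyl enzyme, had 457, 466 and 444 CPM at 6 h and 374, 369 and 378 CPM at 12 h, against 288, 315 and 366 CPM in vehicle. Aars rose by 0.50 ± 0.08 at 6 h and 0.21 ± 0.08 at 12 h (edgeR adjusted p = 2.6e-05 and 0.026), but scaling by totals alone turned these to -0.041 and -0.37, and upper-quartile scaling turned the 12 h value to -0.056. The 12 h call of Aars was lost without vehicle replicate 1 (0.13) or 2 (0.19) and without 12 h replicate 1 (0.21) or 3 (0.20), which left 1 member higher at 12 h. Sars, the seryl enzyme, had 284, 284 and 287 CPM at 6 h and 248, 235 and 254 CPM at 12 h, against 243, 231 and 251 CPM in vehicle, and rose by 0.24 ± 0.07 at 6 h (edgeR adjusted p = 0.0036), where upper-quartile scaling gave -0.016 and totals alone -0.30. At 12 h Sars stood at 0.02 (edgeR adjusted p = 0.75).

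The other cytosolic genes lay between these. Iars (isoleucyl) changed by -0.64 at 6 h and -0.78 at 12 h, Yars (tyrosyl) by -0.71 and -0.52, Kars (lysyl, in both compartments) by -0.49 and -0.68, Rars (arginyl) by -0.49 and -0.69, Lars (leucyl) by -0.43 and -0.69, and Tars (threonyl) by -0.43 and -0.40. All 6 were called lower at both times. Tarsl2 changed by -1.19 ± 0.29 at 6 h and -1.19 ± 0.30 at 12 h at a low level, 3.18, 2.06 and 3.87 CPM at 6 h and 2.65, 2.83 and 3.82 CPM at 12 h, against 9.54, 6.62 and 4.83 CPM in vehicle. Wars (tryptophanyl) changed by -0.18 and -0.22. Its 6 h call was lost without vehicle replicate 2 (-0.16) or 3 (-0.15) and without 6 h replicate 1 (-0.14) or 2 (-0.17), and its 12 h call without vehicle replicate 2 (-0.20) or 3 (-0.19) and without 12 h replicate 3 (-0.19). Mars (methionyl) was at -0.10 at 6 h and 0.13 at 12 h, and Cars (cysteinyl) at -0.14 and -0.08, none of which passed. Without vehicle replicate 3 Mars passed at 12 h (0.20), and without vehicle replicate 1 Cars passed at 6 h (-0.29). Scaling by totals alone put Mars at -0.64 at 6 h and -0.45 at 12 h, and Cars at -0.68 and -0.66, all called lower. Upper-quartile scaling called Mars lower at 6 h (-0.36) and Cars lower at both times (-0.40 and -0.34). In GRCr8 Mars overlaps Ddit3 on the opposite strand, and Ddit3 changed by 1.23 at 6 h and 1.30 at 12 h. The per-strand columns of Mars summed to 1.07 times its unstranded count, and its calls were the same on that sum.

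By structure and assembly the falls were spread widely. Of the 8 genes whose enzymes sit in the multisynthetase complex (Eprs, Iars, Lars, Mars, Qars, Rars, Kars and Dars), 5 fell and 1 rose at 6 h, and 6 fell and 1 rose at 12 h, with medians of -0.46 and -0.69. Of the 13 cytosolic genes outside it, 10 fell and 2 rose at 6 h, and 10 fell and 1 rose at 12 h, with medians of -0.43 and -0.52. Synthetases fall into 2 unrelated structural classes. Among 9 cytosolic class I genes 6 fell at each time, and among 11 class II genes 9 fell at each time, leaving aside Eprs, whose enzyme joins both classes. The scaffold genes of the complex fell as well. Aimp1 had 63.9, 66.5 and 73.3 CPM at 6 h and 49.0, 51.9 and 46.6 CPM at 12 h, against 109, 88.3 and 82.2 CPM in vehicle. It changed by -0.46 at 6 h and -0.92 at 12 h, Aimp2 by -0.48 and -0.93, and Eef1e1 by -1.01 and -1.03, all called.

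Among the 18 cytosolic genes with a promoter window, the 7 with a C/EBP-ATF element had a median of -0.43 at 6 h and -0.40 at 12 h, with 4 lower and 1 higher at each time. The 11 without it had medians of -0.33 and -0.60, with 8 lower and 2 higher at 6 h and 9 lower and 1 higher at 12 h. The 5 genes with an E-box had medians of -0.64 and -0.52, and the 13 without one -0.26 and -0.52. These are descriptions of small groups, and no difference between them was tested. Members with and without either element therefore lay on both sides of 0.

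Between the PMA times, 7 members were higher at 12 h than at 6 h, 9 were lower and 20 did not pass, that is 44.4% called where 51.1% of all genes were called (25.3% higher, 25.8% lower). By group, 3 mitochondrial genes were higher and 0 lower (0 also at an unadjusted p under 0.05, with DESeq2 and with limma-voom), against 4 cytosolic genes higher and 9 lower. The mitochondrial genes higher at 12 h were Rars2, Yars2 and Lars2. The cytosolic ones were Gars, Vars (0.27), Yars (0.20) and Mars (0.23), and the lower ones were Eprs, Farsb, Dars, Aars (-0.29), Farsa, Lars (-0.26), Sars (-0.22), Rars (-0.20) and Kars (-0.19). Libraries of 12 h and 6 h were apart for 9 members upward and 8 downward, where 28.5% and 29.6% of all genes were apart (58% either way).

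Some of these differences rested on single libraries. The call of Kars was lost without vehicle replicate 2 (-0.18), 6 h replicate 1 (-0.19) or 2 (-0.16), or 12 h replicate 1 (-0.15) or 3 (-0.16). That of Rars was lost without 6 h replicate 1 (-0.19), 2 (-0.22) or 3 (-0.20), or 12 h replicate 2 (-0.18) or 3 (-0.16). Yars lost it without 6 h replicate 1 (0.21) or 2 (0.17), or 12 h replicate 1 (0.18) or 3 (0.16). These 3 genes had differences of about 0.2, the smallest that were called. Lars lost it without 6 h replicate 3 (-0.20) or 12 h replicate 3 (-0.22), and Sars without 12 h replicate 2 (-0.18).

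In the test of any difference between the 3 groups 33 of 36 members passed, all but Cars, Fars2 and Sars2, where 87.3% of all genes did. Of the 36, 17 were called in the same direction at both times, without a called difference between 12 h and 6 h. A further 8 had moved back toward vehicle and 6 had moved further away. Of the others 1, Eprs, passed at 12 h but not at 6 h, while 4 (Mars, Cars, Fars2 and Sars2) passed at neither time against vehicle. An uncalled difference does not show that a level held. Among the 17, the 12 h and 6 h libraries were apart for Cars2 and Hars2 only, both higher at 12 h. The 17 comprised 10 mitochondrial and 7 cytosolic genes, and the 6 that moved further were all cytosolic (Farsb, Dars, Kars, Rars, Lars and Farsa). With upper-quartile scaling or totals alone Eprs passed at 6 h too. Both scalings also called Cars and Fars2 lower at both times and Mars lower at 6 h. Totals alone called Mars lower at 12 h as well, and Sars2 lower at both times (-0.78 and -0.68). The 8 that moved back were Gars, Vars, Yars, Aars, Sars, Rars2, Yars2 and Lars2. Among all genes tested, those called at both times without a called difference between them were 14% higher and 18% lower. Those that moved back were 15% and 13%, those that moved further 7.4% and 6%, and those that passed at 12 h only 4.27% and 4.16%. These classes follow from the calls above and were not tested as such.

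Summed over the genes, the cytosolic set took 3469 ± 28.4 CPM at 6 h and 3196 ± 16.8 CPM at 12 h, against 4245 ± 203 CPM in vehicle (SD, n = 3 libraries each). The mitochondrial set took 140 ± 9.93 CPM at 6 h and 155 ± 5.15 CPM at 12 h, against 297 ± 15.8 CPM in vehicle. In neither set did a PMA library reach the lowest vehicle library. The ratio of both sums needs no scaling between libraries. It was 3.90, 4.38 and 3.80 mitochondrial reads per 100 cytosolic reads at 6 h and 4.93, 4.68 and 4.90 at 12 h, against 7.67, 7.11 and 6.28 in vehicle. The 3 groups did not overlap on this ratio, which was lowest at 6 h.

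**Figure D3:**
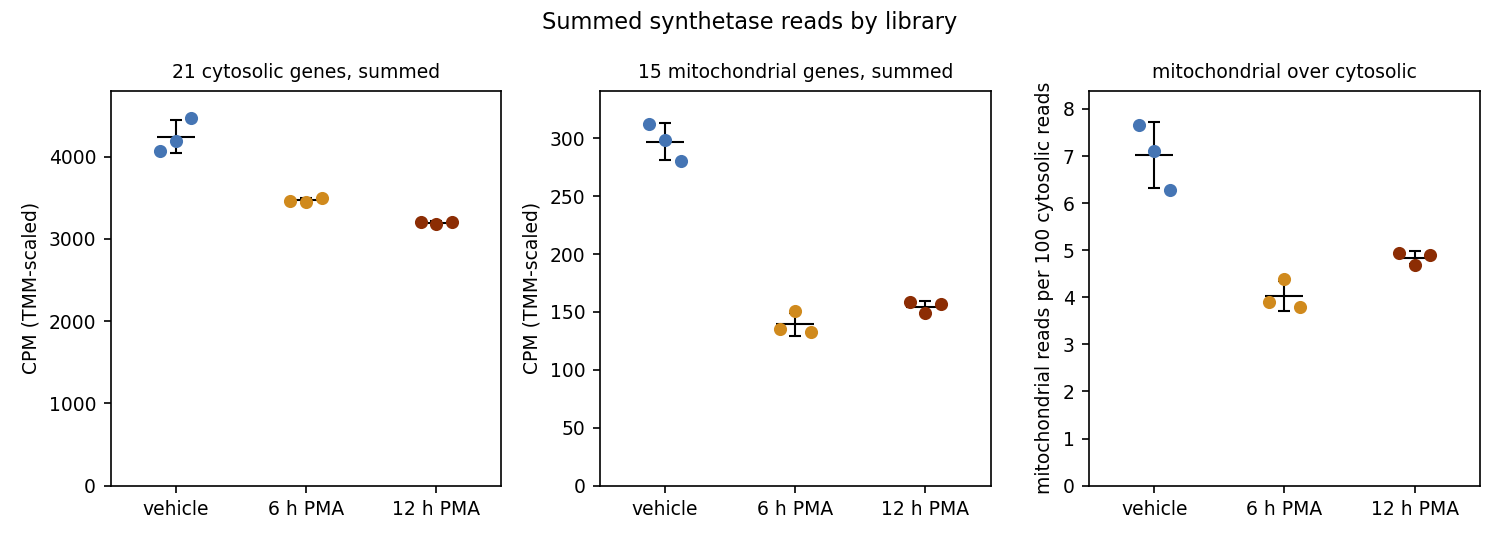
Summed TMM-scaled CPM of 21 cytosolic and of 15 mitochondrial synthetase genes, and mitochondrial reads per 100 cytosolic reads (y axes from 0), in each library of vehicle and of 6 h and 12 h PMA, with mean ± SD. The ratio lies at 3.80 to 4.38 at 6 h and 4.68 to 4.93 at 12 h, against 6.28 to 7.67 in vehicle.

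Each mitochondrial gene was then set against the cytosolic gene for its amino acid within the same library, which again needs no scaling. Gene lengths were not available, so the ratio was compared between libraries only. Of 16 such pairs, the ratio was lower in all 3 libraries at 6 h than in all 3 vehicle libraries for 13, higher for 1 and overlapping for 2. At 12 h it was lower for 9, higher for 3 and overlapping for 4. The share for ratios of other gene pairs was not computed, while 79% of single genes were apart at 6 h and 78.7% at 12 h. The pairs are not independent, since Eprs served for Ears2 and Pars2, and Fars2 was set against Farsa and Farsb. Hars2 against Hars was among the 13 by a narrow margin (30.3 at 6 h against 30.7 in vehicle at the closest) and among the 3 at 12 h. Rars2 had 1.64, 0.932 and 0.939 reads per 100 Rars reads at 6 h and 2.80, 2.40 and 2.41 at 12 h, against 10.97, 8.91 and 8.39 in vehicle. Here the mitochondrial gene lost more than its cytosolic counterpart. The pair Fars2 and Farsb ran the other way, with 31.1, 43.9 and 27.6 at 6 h and 39.0, 43.0 and 77.8 at 12 h, against 14.1, 13.8 and 10.8 in vehicle, whereas Fars2 against Farsa overlapped. Lars2 had 7.34, 7.56 and 4.95 per 100 Lars reads at 6 h and 12.6, 14.5 and 14.8 at 12 h, against 10.9, 10.3 and 9.54 in vehicle. It was thus below the vehicle ratio at 6 h and above it at 12 h.

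Hars and Hars2, the cytosolic and mitochondrial histidyl enzymes, are neighbours that face away from each other. In GRCr8 the annotated genes leave 97 bases between them, 55.67% G or C, shown because it lies upstream of both genes, written on the plus strand.
Between Hars and Hars2 (chr18:28672713-28672809, plus strand): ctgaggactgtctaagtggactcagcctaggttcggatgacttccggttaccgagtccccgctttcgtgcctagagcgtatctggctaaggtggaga
Hars had 113, 102 and 94.4 CPM at 6 h and 91.6, 84.0 and 97.3 CPM at 12 h, against 122, 125 and 122 CPM in vehicle. Hars2 had 28.4, 28.3 and 28.6 CPM at 6 h and 31.7, 28.9 and 36.2 CPM at 12 h, against 38.5, 38.5 and 37.8 CPM in vehicle. Both were below vehicle in every PMA library. Hars changed by -0.26 ± 0.08 at 6 h and -0.44 ± 0.08 at 12 h (edgeR adjusted p = 0.0092 and 0.00012), and Hars2 by -0.43 ± 0.10 and -0.25 ± 0.10 (edgeR adjusted p = 0.0011 and 0.037). The ratio was 25.0, 27.7 and 30.3 Hars2 reads per 100 Hars reads at 6 h and 34.6, 34.4 and 37.3 at 12 h, against 31.5, 30.7 and 30.9 in vehicle. The 12 h call of Hars2 was lost without any 1 vehicle library (-0.25 to -0.26 across them) and without 12 h replicate 1 (-0.23) or 2 (-0.17). Hars differed between 12 h and 6 h by -0.18, which passed without 6 h replicate 3 (-0.24) or 12 h replicate 3 (-0.23).

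Genes that act on tRNA around the synthetases fell in larger numbers than they rose. For this and the following lists, the shares over all genes tested were 39% lower and 37.8% higher at 6 h. At 12 h they were 38.2% lower and 37.7% higher. Of 10 tested genes of tRNA editing and indirect charging, 9 fell at 6 h and 10 at 12 h, with a median of -1.35 at each time. Sepsecs, which makes selenocysteinyl-tRNA, had 2.91, 2.94 and 5.72 CPM at 6 h and 7.55, 6.03 and 7.11 CPM at 12 h, against 19.3, 18.8 and 18.7 CPM in vehicle, a change of -2.28 at 6 h and -1.46 at 12 h. Mtfmt, which formylates the mitochondrial initiator methionyl-tRNA, changed by -2.23 and -1.39, and Prorsd1, a homologue of bacterial prolyl-tRNA editing domains, by -1.54 and -3.29. Prorsd1 rested on few reads, with 0.95 to 1.66 CPM at 6 h and 0.17 to 0.80 CPM at 12 h, against 3.27 to 4.67 CPM in vehicle. Of 24 tested genes of tRNA maturation and export, 17 fell and 4 rose at 6 h, and 19 fell and 3 rose at 12 h, with medians of -0.94 and -0.87. Elac1, a tRNA 3' processing enzyme, changed by -1.66 and -3.24, and Pop1, of RNase P, by -2.52 and -1.58. The level of Elac1 was low at 12 h, 0.52 to 1.23 CPM, against 8.77 to 9.45 CPM in vehicle. Those that rose, picked out after their values were seen, were Clp1 (2.16 and 0.96), Adat3 (1.10 and 0.84), Tsen54 (0.55 and 0.39) and, at 6 h, Xpot (0.19). Under totals alone 2 rose at 6 h and 1 at 12 h, with 21 lower at each time.

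Of 21 tested genes of RNA polymerase III and its regulators, the machinery that transcribes tRNA genes, 11 fell and 7 rose at 6 h. At 12 h 14 fell and 4 rose, and the medians were -0.30 and -0.50. Over all genes tested 39% fell and 37.8% rose at 6 h, and 38.2% and 37.7% at 12 h. Polr3g, a polymerase III subunit typical of stem and proliferating cells, had 6.16, 6.98 and 7.11 CPM at 6 h and 6.19, 8.28 and 6.94 CPM at 12 h, against 45.6, 41.3 and 41.9 CPM in vehicle. It changed by -2.67 at 6 h and -2.59 at 12 h, Polr3k by -1.87 and -1.13, and Polr3f by -0.97 and -1.80. Maf1, the repressor of polymerase III, rose by 0.89 and 0.49, although scaling by totals alone turned its 12 h value to -0.092. The genes higher at 12 h, picked out after their values were seen, were Maf1, Crcp (0.72), Bdp1 (0.55) and Gtf3c4 (0.73). Under totals alone 15 fell and 4 rose at 6 h and 17 fell at 12 h, where all 4 of these 12 h calls were lost.

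The Atf4 list, of 29 tested amino acid response genes, had 10 higher and 14 lower at 6 h and 8 higher and 18 lower at 12 h. All genes tested were divided too, with 37.8% higher and 39% lower at 6 h and 37.7% and 38.2% at 12 h. Under totals alone the list had 9 higher and 19 lower at 6 h and 7 higher and 21 lower at 12 h. Atf4 itself had 985, 972 and 828 CPM at 6 h and 1020, 984 and 1000 CPM at 12 h, against 285, 373 and 437 CPM in vehicle, and rose by 1.35 ± 0.13 and 1.46 ± 0.13 (edgeR adjusted p = 3.2e-07 and 1.5e-07). Cebpb, a C/EBP factor, rose by 2.68 at 6 h and 1.60 at 12 h. Chac1, a glutathione-degrading enzyme induced by Atf4 in other cells, changed by -2.04 and -0.89, and Aldh18a1, of proline synthesis, by -2.21 ± 0.60 and -1.79 ± 0.58. Aldh18a1 rested on few reads, with 0.29 to 0.42 CPM at 6 h and 0.087 to 0.94 CPM at 12 h, against 1.12 to 1.85 CPM in vehicle. Atf4 was thus higher in all 6 PMA libraries. Of the 7 synthetase genes with a C/EBP-ATF element, 4 were lower and 1 higher at each time. Of the 11 cytosolic genes without it, 8 were lower and 2 higher at 6 h, and 9 lower and 1 higher at 12 h. A link between the Atf4 transcript and these genes was not tested.

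Of 13 tested mitochondrial translation factors, 8 fell at 6 h and 10 at 12 h, with medians of -0.69 and -0.70, and 13 were lower at each time under totals alone. Gtpbp3 and Trmu, which modify mitochondrial tRNA, changed by -2.09 and -2.43 and by -2.12 and -0.83. Gtpbp3 was low, with 0.69 to 2.14 CPM at 6 h and 0.94 to 1.21 CPM at 12 h, against 3.91 to 7.60 CPM in vehicle. Cytosolic elongation factors, which carry charged tRNA to the ribosome or move it along, mostly rose, with 4 of 5 higher and 1 lower at each time and medians of 0.70 and 0.82. Eef1a1 rose by 1.65 and 1.61, Eef2 by 1.18 and 1.16, and Eef1g by 0.70 and 0.82, while Eef1d, picked out after its values were seen, changed by -0.50 and -0.56. Most synthetase genes and most of these elongation factors therefore lay on opposite sides of vehicle.

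**Figure D4:**
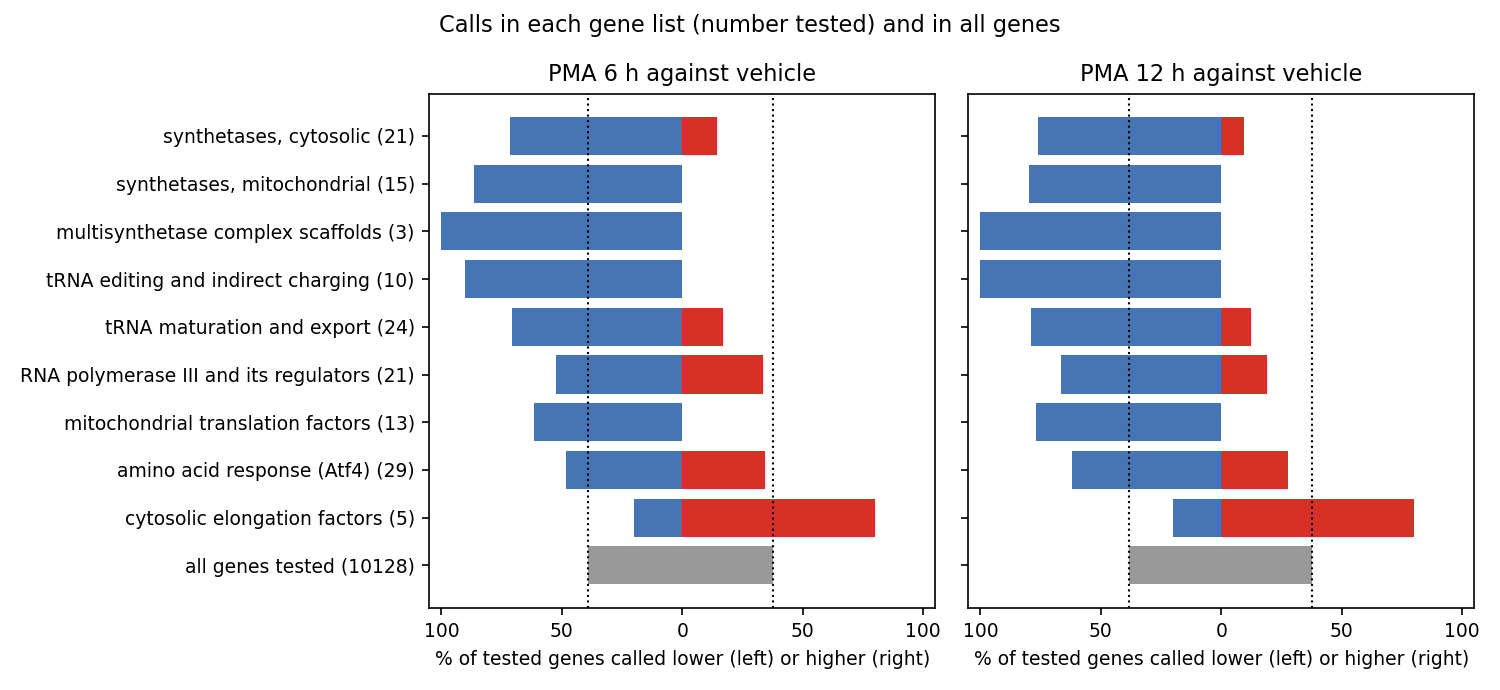
Share of tested genes called higher (right) and lower (left) after PMA at 6 h and 12 h, in percent (x axis), for the cytosolic and mitochondrial synthetase genes, the 7 lists of related genes and, in grey, all 10128 genes tested, whose shares are the dotted lines. The tRNA lists and both synthetase sets extend left of the background, and the elongation factors extend right.

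Markers of most other cell types stood near 0. Neuronal lineage markers summed to at most 2.98 CPM in any library, with Gap43, Neurog1 and Stmn2 at 0 reads in every library. Ncam1, the 1 tested gene of that list, was at 1.20 at 6 h without passing and rose by 2.54 at 12 h (edgeR adjusted p = 0.00053). Fibroblast and pericyte markers, with Col1a2, Pdgfrb, Lum and Thy1 at 0, summed to 2.06 to 3.82 CPM at 6 h and 1.77 to 3.64 CPM at 12 h, against 4.51 to 5.78 CPM in vehicle. Endothelial and glial markers summed to 0.88 to 1.68 CPM at 6 h and 2.11 to 4.08 CPM at 12 h, against 0.42 to 0.73 CPM in vehicle. The 1 tested gene of this last list was called higher at both times, by 6.43 and 8.38. Respiratory and microvillar markers, with Scgb1a1 at 0, summed to 0.64 to 1.94 CPM at 6 h and 1.56 to 2.38 CPM at 12 h, against 3.02 to 3.93 CPM in vehicle. The sustentacular and gland list summed to 419 to 499 CPM at 6 h and 706 to 749 CPM at 12 h, against 108 to 122 CPM in vehicle. Its 2 expressed genes, Hes1 and Sox9, are not restricted to those cells, and Cyp2g1, Cyp1a2 and Ermn had no reads. Immune markers summed to 70.9 to 72.9 CPM at 6 h and 83.7 to 95.7 CPM at 12 h, against 26.7 to 29.2 CPM in vehicle, with Ptprc at 0 reads. Cd68, a lysosomal protein gene, carried most of that sum and rose by 1.83 at 6 h and 2.13 at 12 h, while Cd14 fell by 2.40 at 6 h and 1.25 at 12 h on the log2 scale. The part of these markers, and of the lower basal cell markers, in the synthetase changes was not tested.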

How the data were processed

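RNA-seq libraries of rat horizontal basal cells were used, 3 per group. The deposited tables hold counts of reads per gene, with an unstranded column and 1 column per strand, which the authors made with STAR 2.7.5b on rn6, per the submitters' processing notes. Of the gene annotation nothing is given in the sources used here. A deposited normalized table (9 value columns) was not used here. The unstranded counts were used, which do not record the strand of a read. Reads ambiguous between genes (0.526% to 0.740% of a library) stood in a summary line outside the gene counts. With the per-strand columns summed, the calls of members were the same in all 108 comparisons.

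The 4 summary lines were left out. Across all 9 libraries, 10128 of 17315 genes passed filterByExpr (minimum count 10). They were fitted by group with TMM scaling and edgeR's quasi-likelihood test (edgeR 4.0.16, limma 3.58.1, R 4.3.3), Benjamini-Hochberg adjusted over all genes tested, with a threshold of 0.05. Log2 fold changes come from the fit. The script was tested on simulated data. Reads in genes made up 67.8% to 71.3% of a library, and members had 38761 to 104576 reads a library; the biological coefficient of variation was 11.2%. No replicates were copies (chi-square per degree of freedom 3.88 to 27.8). Alternatives were DESeq2 1.42.0 (size factors and Wald test), limma-voom, upper-quartile and no scaling, no filter, summed strands, each comparison's groups alone, a replicate block and leaving out each library.

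Results of 3 genes are not reported here, though they stay in the counts. Values of each library are otherwise given for the 6 cytosolic and 4 mitochondrial genes with the smallest p over the 3 groups and for Hars and Hars2; other members by their fold change, and further ones were picked after their values were seen. Of each list, up to 3 called genes with the largest change and a few set partners are named. Members, gene lists and these rules were chosen with earlier results of these data known. Sequences are RefSeq's (GRCr8).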

Additional observations from a re-analysis of the deposited data

Results flagged for a closer look

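For 16 genes the effect of PMA against vehicle differed between 12 h and 6 h by edgeR's quasi-likelihood test of the difference itself. Both effects share the vehicle libraries, which cancel, so this is the comparison of 12 h with 6 h given above and no further test. The difference, 12 h minus 6 h on the log2 scale, was upward for the mitochondrial genes Rars2 (0.92), Lars2 (0.84) and Yars2 (0.81) and for the cytosolic genes Gars (0.47), Vars (0.27), Mars (0.23) and Yars (0.20). It was downward for the cytosolic genes Eprs (-0.64), Farsb (-0.58), Dars (-0.54), Aars (-0.29), Farsa (-0.26), Lars (-0.26), Sars (-0.22), Rars (-0.20) and Kars (-0.19). The calls of Rars2, Yars, Farsa, Lars, Sars, Rars and Kars were each lost when certain single libraries were left out, as given above.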

How the results depend on the processing

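No called change of a member reversed with DESeq2's size factors or Wald test, limma-voom, no filter, summed strands, only the groups compared or leaving out a library. Scaling by totals alone turned Aars (-0.041 at 6 h, -0.37 at 12 h), Sars (-0.30, -0.56), Mars at 12 h (-0.45) and Maf1 at 12 h (-0.092), and upper-quartile scaling turned Aars at 12 h (-0.056) and Sars (-0.016 at 6 h, -0.25 at 12 h). The genes higher at 12 h, all of them cytosolic, numbered 2 as reported, 1 under upper-quartile scaling or with only the groups compared, and 0 under totals alone (Qars at 0.11); at 6 h totals alone left 1. Leaving out 1 library gave 1 to 3 higher and 26 to 28 lower at 12 h, 3 higher and 25 to 29 lower at 6 h, and 5 to 7 higher and 6 to 9 lower between the times. The cause was not tested. With a replicate block, 26 members were lower at 6 h (28 without it) and 28 at 12 h; Aars2 (-0.39) and Wars (-0.18) at 6 h and Kars between the times (-0.19) lost their calls and no other member did. Deviations of same-numbered libraries had correlations of -0.11 to 0.03, so no shared deviation by number was seen. These values cannot tell whether same-numbered libraries came from the same animal, culture or day. Few reads limited Ears2 and Tarsl2 (46, 28 and 67 reads of Tarsl2 at 6 h). Rars2, with 37, 19 and 25 reads at 6 h, and Nars2, with 43, 29 and 43, were limited in the same way.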

Other observations

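Besides Hars and Hars2, 4 members face a protein-coding neighbour that starts next to them in the opposite direction in GRCr8. Lyrm4, beside Fars2, was not analysed here, and the other neighbours, picked out by position alone, did not all move with their member. Orc3, of the origin recognition complex and the neighbour of Rars2, changed by -1.34 ± 0.14 at 6 h and -1.95 ± 0.15 at 12 h (SE, edgeR adjusted p = 1.7e-07 and 2.5e-09), where Rars2 changed by -3.50 and -2.58. Between 12 h and 6 h Orc3 was lower (-0.61) and Rars2 higher (0.92). Terf2ip, a telomere protein gene beside Kars, rose by 0.68 ± 0.12 at 6 h and 0.40 ± 0.12 at 12 h (edgeR adjusted p = 7.1e-05 and 0.0071), where Kars changed by -0.49 and -0.68. Ubfd1, beside Ears2, changed by -0.66 ± 0.15 and -0.44 ± 0.15 (edgeR adjusted p = 0.00068 and 0.014), where Ears2 changed by -2.32 and -1.82. Neighbour and member were not tested against each other.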
